A study of Bos taurus with 27 samples.

Results

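The epiblast pluripotency factors analysed here were the 10 genes POU5F1, NANOG, SOX2, SALL4, LIN28A, LIN28B, KLF4, KLF5, PRDM14 and ESRRB, chosen by name. All 10 were among the 32637 genes counted, and all 10 were among the 12310 genes retained with at least 1 CPM (counts per 1000000 counts of a pool) in 12 of the 27 blastocyst pools. Each pool was the RNA of 2 bovine blastocysts, expanding or expanded and of the best quality grade, produced in vitro. Oocytes from abattoir ovaries were matured in medium supplemented with fluid of preovulatory follicles whose maturity was greater or lesser. They were then fertilized with semen of 1 bull, and the 2 embryos of a pool shared treatment and IVF replicate. The labels of the pools do not give treatment or replicate, so the pools were not placed in either treatment, follicle maturity was not compared, and a treatment or replicate that moved several genes cannot be told apart from other variation among pools. Values are given over all 27 pools as the lowest, median and highest.

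The blastocyst holds an outer trophectoderm, which forms the placenta, and an inner cell mass, which divides into epiblast and hypoblast. The epiblast forms the fetus and is maintained by a network of transcription factors with POU5F1 (OCT4), NANOG and SOX2 at its center. In cattle POU5F1 persists in the trophectoderm of the blastocyst, while SOX2 and NANOG become limited to the inner cell mass. The RNA of whole embryos was measured, so fewer cells of a lineage and less RNA per cell cannot be told apart.

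Total counts on genes ran from 10517606 to 44253564 (median 22293594). The smallest abundance shown by 3 counts ranged from 0.0678 to 0.285 CPM, below the lowest value of every factor. This limit covers counting error only. The total count and the number of genes with a count were each compared with the 10 factors, and none of these 20 relations had an unadjusted permutation p of 0.05 or less for Spearman rho. The share of counts from mitochondrially encoded transcripts, between 4.51% and 7.62%, was added after the data were seen and was related to none of the 10 factors (smallest adjusted permutation p = 0.197). As a check of the labelled tissue, 12 of 15 trophectoderm markers were retained. Their keratin KRT8 ranged from 10633 to 26270 CPM, and CDX2 had a median of 3.62 CPM. EOMES and PPARG, with medians of 0.0672 and 0.436 CPM, were not retained, and IFNT was not among the genes counted. Of 14 hypoblast markers 10 were retained, and SOX17, FOXA2 and CUBN had a median of 0 CPM. Of 8 markers of cumulus and granulosa cells 3 were retained, with a summed level of all 8 between 5.31 and 34.2 CPM, and FOXL2 had a median of 0 CPM. Of 8 leukocyte markers 6 were retained, with a summed level between 10.9 and 60 CPM. None of the 3 cumulus and granulosa or 6 leukocyte markers that were retained passed edgeR's quasi-likelihood test with POU5F1, NANOG or SOX2. Of all genes tested, 6.6% passed with POU5F1, 0.00812% with NANOG and 0% with SOX2. With shares this small, the lack of a call among so few markers says little about these cells.

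POU5F1, the POU domain factor required for pluripotency, was the first of the core factors described. Its gene occupies positions 27982798 to 27987297 of chromosome 23 (build ARS-UCD2.0, used throughout). Its abundance was 109 CPM in the lowest pool, 399 CPM at the median and 753 CPM in the highest pool. Pool 31 stood below the others, since the next lowest was pool 33 with 234 CPM. At the top, pool 32 was followed by pool 15 with 604 CPM.

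NANOG, the homeobox factor that holds epiblast cells against hypoblast fate, lies on chromosome 5 from 101412795 to 101417948. Its abundance was 15.3 CPM in pool 35, 51.6 CPM at the median and 133 CPM in pool 45. Pools were spread over this range with no single pool apart, and the upper quartile was 2.99 times the lower quartile, the widest middle range of the 10 factors. The biological coefficient of variation (BCV) estimated by edgeR, which is the relative spread among pools beyond counting error, was 0.593. Of the 1429 retained genes of like abundance, 98.1% had a lower BCV, and their median was 0.218. Shares were also high for POU5F1 (94.3%, with a BCV of 0.318), KLF4 (87.9%) and SALL4 (82.3%), each against genes of its own abundance.

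SOX2, the partner of POU5F1 on DNA, lies on chromosome 1 from 85302293 to 85303771, inside the long noncoding gene LOC100849009, which had a median of 0 CPM. SOX2 was at 2.82 CPM in pool 9, 6.86 CPM at the median and 20.5 CPM in pool 32. Pool 32 was alone at the top, with pool 25 next at 11.8 CPM. At the bottom, pool 9 was followed by pool 21 at 3.18 CPM. The upper quartile was 1.31 times the lower, and 41.4% of the 1754 genes of like abundance had a lower BCV than its 0.388.

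**Figure D1:**
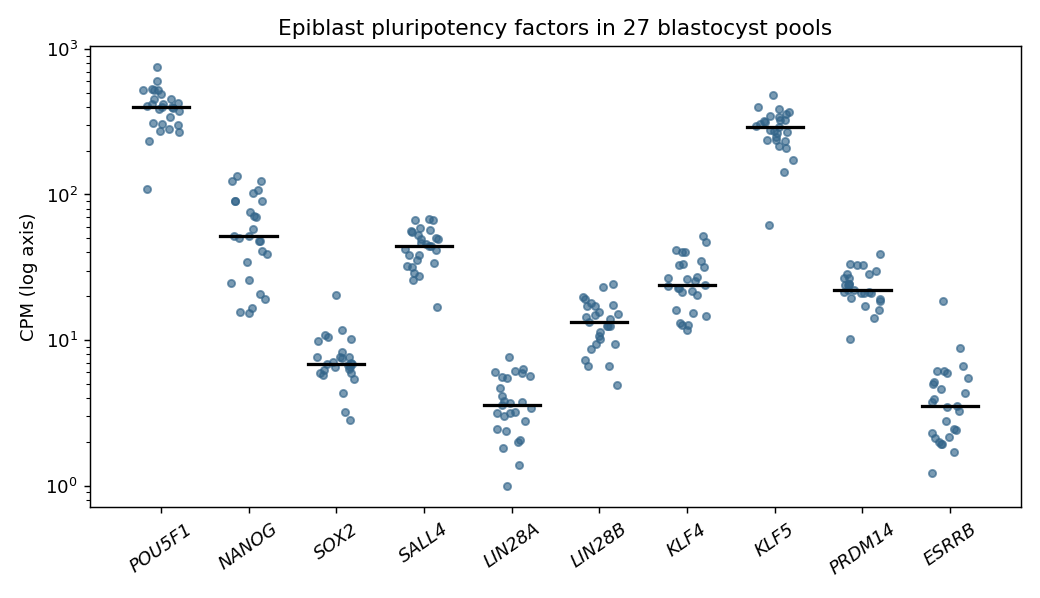
CPM of each factor on a log axis, with 1 point for each of the 27 blastocyst pools and a black line at the median. NANOG points spread widely from 15.3 to 133 CPM, the highest SOX2 point is pool 32 at 20.5 CPM, and the lowest POU5F1 point is pool 31 at 109 CPM. Levels of different genes were not compared.

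The Krüppel-like factors differ in where they act, KLF4 being a reprogramming and epithelial factor and KLF5 a factor of both inner cell mass and trophectoderm. KLF5, on chromosome 12 from 47795482 to 47818776, was between 62.2 CPM in pool 9 and 479 CPM in pool 14, with a median of 292 CPM. Pool 9, also lowest in SOX2, lay below pool 31 at 142 CPM, and 94% of the 514 genes of like abundance had a lower BCV than KLF5. KLF4, on chromosome 8 from 97174495 to 97179299, ranged from 11.8 to 51.5 CPM (median 23.9). Its pools were spread without a gap at either end.

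SALL4, a zinc finger factor that regulates POU5F1 in stem cells, lies on chromosome 13 from 79566132 to 79583655. It was at 16.9 CPM in pool 9, 44.5 CPM at the median and 67.8 CPM in pool 31, the pool that was lowest in POU5F1. PRDM14, a factor of naive pluripotency and germ cells, lies on chromosome 14 from 33786654 to 33805075 and ranged from 10.2 to 39.2 CPM (median 22.2). It had the smallest range of the 10 factors, with the highest pool 3.86 times the lowest. ESRRB, an orphan nuclear receptor of the naive network in mouse, lies on chromosome 10 from 87626899 to 87810135. Its range was the widest, 15.2-fold from 1.22 CPM to 18.6 CPM around a median of 3.52 CPM. Pool 35 alone set the upper end, since pool 45 was next at 8.78 CPM.

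LIN28A and LIN28B are RNA-binding proteins that block maturation of the let-7 microRNAs. LIN28A, on chromosome 2 from 126708949 to 126720207, was near the retention limit, from 0.987 to 7.64 CPM (median 3.59). It was below 1 CPM in pool 19 and above it in the other 26 pools. LIN28B, on chromosome 9 from 44943951 to 45086236, ranged from 4.94 to 24.4 CPM (median 13.3). The 2 paralogs did not follow each other detectably over pools (Spearman rho 0.214, permutation p = 0.279).

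Whether the factors rose and fell together was tested in the 45 pairs they form. Over the 27 pools, 11 pairs had an unadjusted permutation p of 0.05 or less for Spearman rho, and 5 pairs had an adjusted p of 0.05 or less over the 45 relations computed, all 5 in the same direction. The 3 core factors were not among each other's called pairs. POU5F1 and NANOG had a rho of -0.0165 (permutation p = 0.936), and NANOG and SOX2 a rho of 0.118 (p = 0.552, adjusted p = 0.849). POU5F1 and SOX2 had a rho of 0.40, which passed before adjustment (p = 0.039) and not after (adjusted p = 0.159), and their Pearson r of 0.39 fell to 0.227 without pools 31 and 32. No called pair held NANOG, whose rho with the other 9 factors was between -0.0904 and 0.195.

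The 5 called pairs joined the factors other than NANOG and LIN28A, which were in none. SOX2 and PRDM14 were correlated with a rho of 0.609 (permutation p = 0.00096, adjusted p = 0.0216) and Pearson r, taken on log2(CPM + 1), was 0.568 (p = 0.00273, adjusted 0.0409). Pool 32 held the highest value of both genes, and r was 0.426 without pools 9 and 32. POU5F1 and KLF5 had a rho of 0.536 (permutation p = 0.00445, adjusted p = 0.04), while r was 0.542 (p = 0.014, adjusted p = 0.0811) and 0.434 without pools 31 and 32. This pair also lost its call without pool 9 (rho 0.497) and without any 1 of 12 other pools (rho from 0.484, without pool 31).

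SALL4, KLF4, ESRRB and LIN28B were linked by the other 3 pairs. SALL4 and KLF4 had a rho of 0.567 (permutation p = 0.00246, adjusted p = 0.0277) and an r of 0.562 (p = 0.00221, adjusted p = 0.0409), which was 0.432 without pools 6 and 9. For SALL4 and ESRRB rho was 0.589 (permutation p = 0.00158, adjusted p = 0.0237), and r was 0.506 (p = 0.00803, adjusted p = 0.0811) and 0.555 without those pools. For LIN28B and KLF4 rho was 0.612 (permutation p = 0.00082, adjusted p = 0.0216), and r was 0.553 (p = 0.00257, adjusted p = 0.0409) and 0.489 without pools 1 and 28. SALL4 with KLF4 lost its call without pool 9, 15 or 22 (rho 0.53, 0.53 and 0.532), and SALL4 with ESRRB without pool 15 (rho 0.563). SALL4 and POU5F1 tended in opposite directions, with a rho of -0.49 (permutation p = 0.0106) that did not pass adjustment (adjusted p = 0.0683).

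**Figure D2:**
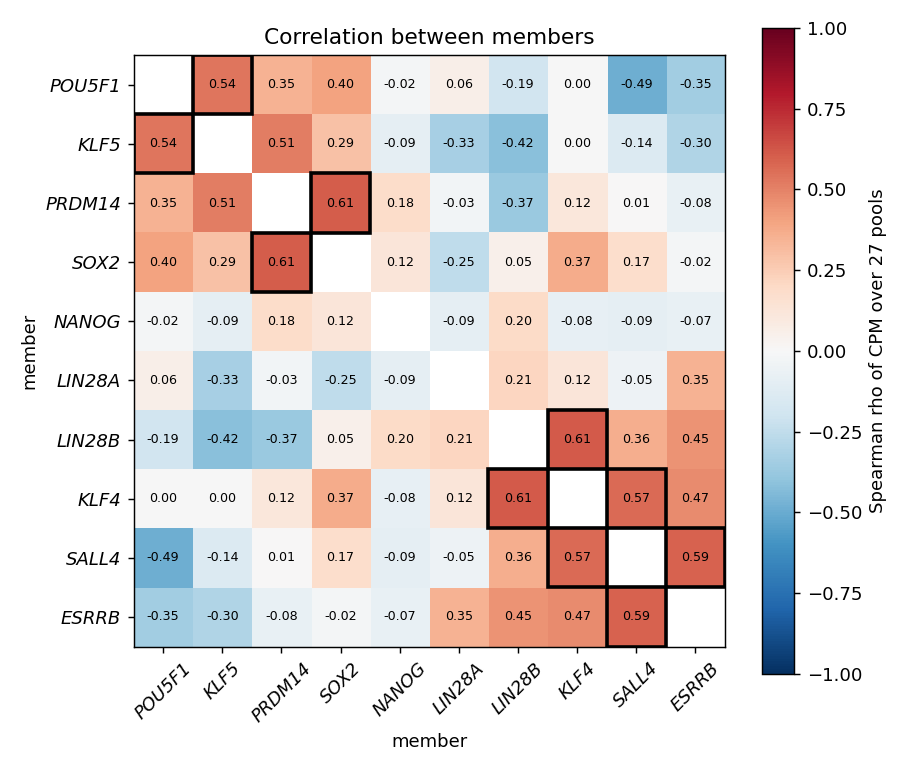
Spearman rho of CPM over the 27 pools for each pair of factors, from blue at -1 to red at 1, with black outlines on pairs whose adjusted permutation p was 0.05 or less. The 5 outlined pairs run from 0.536 to 0.612, the NANOG values lie between -0.0904 and 0.195, and SALL4 with POU5F1 is the lowest value at -0.49.

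Pairs were also compared with the whole table. The slope of each retained gene on log2(CPM + 1) of a factor was fitted with edgeR's quasi-likelihood test, and p-values were adjusted over the 12309 other genes. A slope of 1 is a doubling of the gene for each doubling of CPM + 1 of the factor. For factors at a few CPM, such as SOX2, LIN28A and ESRRB, that is more than a doubling of the factor itself. With SALL4, 2 of the 9 other factors rose, KLF4 with a slope of 0.738 (adjusted p = 0.0261) and ESRRB with a slope of 1.04 (adjusted p = 0.0476), where 3.57% of all genes tested rose and 3.19% fell. With POU5F1, 1 of the 9 other factors rose, KLF5 with a slope of 0.496 (adjusted p = 0.0465, and above 0.05 without any 1 of 18 pools, up to 0.198), where 3.31% of all genes tested rose and 3.29% fell, 6.6% in all. For these 3 pairs the reverse fit, with the roles of the genes exchanged, had an adjusted p above 0.05, 0.214 for SALL4 on KLF4, 0.345 for SALL4 on ESRRB and 0.107 for POU5F1 on KLF5. No other pair of factors passed this test in either direction.

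The pools formed 2 separate sets in Y-linked transcripts, the sum of DDX3Y, EIF1AY, USP9Y, ZFY and ZRSR2Y being between 18.9 and 197 CPM in 18 pools and between 0.43 and 1.65 CPM in 9 pools, so the pairs were computed again within the 18. There rho was 0.699 for SOX2 and PRDM14, 0.655 for SALL4 and KLF4, 0.527 for POU5F1 and KLF5, 0.517 for SALL4 and ESRRB and 0.513 for LIN28B and KLF4. Each of these had an unadjusted permutation p of 0.05 or less, and no pair passed adjustment over 45.

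Of the 3 core factors, POU5F1 had the most genes called. By edgeR 408 genes (3.31%) rose and 405 (3.29%) fell with it at an adjusted p of 0.05 or less. Among 23 retained genes of a list of 31 other pluripotency and epiblast genes, 2 rose and 1 fell, and the median slope was -0.022 beside 0.0052 for all genes tested. ZFP42 (REX1), a zinc finger marker of undifferentiated cells, ranged from 232 to 669 CPM and rose with POU5F1 with a slope of 0.547 (adjusted p = 0.000248). DPPA3 (STELLA), a maternal and germline factor that protects DNA methylation, ranged from 108 to 411 CPM and rose with a slope of 0.538 (adjusted p = 0.00241). MYC, the growth-promoting oncogene, fell, with a slope of -0.722 (adjusted p = 0.0256). TFAP2C, TBX3, IL6ST and OTX2 did not pass, with slopes between -0.0631 and 0.207.

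Of 12 retained trophectoderm markers, 2 fell with POU5F1 and none rose, where 3.29% of all genes tested fell, and the median slope was -0.203. CDX2, the homeobox factor of trophectoderm that opposes POU5F1 in mouse, ranged from 1.97 to 9.42 CPM and had a slope of -0.677 (adjusted p = 0.0127). The keratin KRT19 ranged from 361 to 2324 CPM and had a slope of -0.743 (adjusted p = 0.023). The slopes of KRT8 and KRT18 were -0.206 and -0.309 and did not pass (adjusted p = 0.24 and 0.0747), nor did that of GATA3 (-0.201, adjusted p = 0.287). PTGS2, which makes prostaglandins, was at 0.018 (adjusted p = 0.915). TEAD4 (0.125, adjusted p = 0.6) and HAND1 (0.532, adjusted p = 0.594) also had positive slopes, and the trophectoderm markers not named had negative slopes. Of 10 hypoblast genes, with a median slope of 0.185, 1 rose, the basement membrane protein NID2 with a slope of 0.708 (adjusted p = 0.023), and of 12 genes of the let-7 list, which holds LIN28A and LIN28B themselves, 1 fell, the chromatin protein HMGA1 with a slope of -0.502 (adjusted p = 0.042). The hypoblast factor GATA6 had a slope of 0.281 (adjusted p = 0.454). The median slope was -0.00665 for the let-7 list, -0.184 for 3 cumulus and granulosa genes and 0.346 for 6 leukocyte genes, of which none passed.

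Several of these calls depended on the pool lowest in POU5F1. Pool 31 was lowest in ZFP42 at 232 CPM and in DPPA3 at 108 CPM, and highest in CDX2 at 9.42 CPM and in KRT19 at 2324 CPM. Pool 32, highest in POU5F1, was highest in ZFP42 at 669 CPM and lowest in KRT19 at 361 CPM. Without pool 31, 185 genes were called with POU5F1 in place of 813, and without pool 32 the count was 522. In the fit without pool 31, ZFP42 still passed (slope 0.784, adjusted p = 0.000176), as did MYC (slope -0.981, adjusted p = 0.0271). The slopes of KRT19 (-0.867, adjusted p = 0.112), NID2 (0.742, adjusted p = 0.115), KLF5 (0.524, adjusted p = 0.198) and HMGA1 (-0.488, adjusted p = 0.279) were of like or larger size but did not pass. Those of DPPA3 (0.44, adjusted p = 0.0846) and CDX2 (-0.54, adjusted p = 0.30) were smaller and did not pass either. KRT19 and NID2 also lost their calls without pool 32 (adjusted p = 0.0638 and 0.0648), MYC without pool 42 (0.0513), and HMGA1 without any 1 of 10 pools, pool 31 among them. Within the 18 pools with Y-linked transcripts MYC (adjusted p = 0.0954), KRT19 (0.0525), HMGA1 (0.0725) and KLF5 (0.134) did not pass, while ZFP42, DPPA3, CDX2 and NID2 did.

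**Figure D3:**
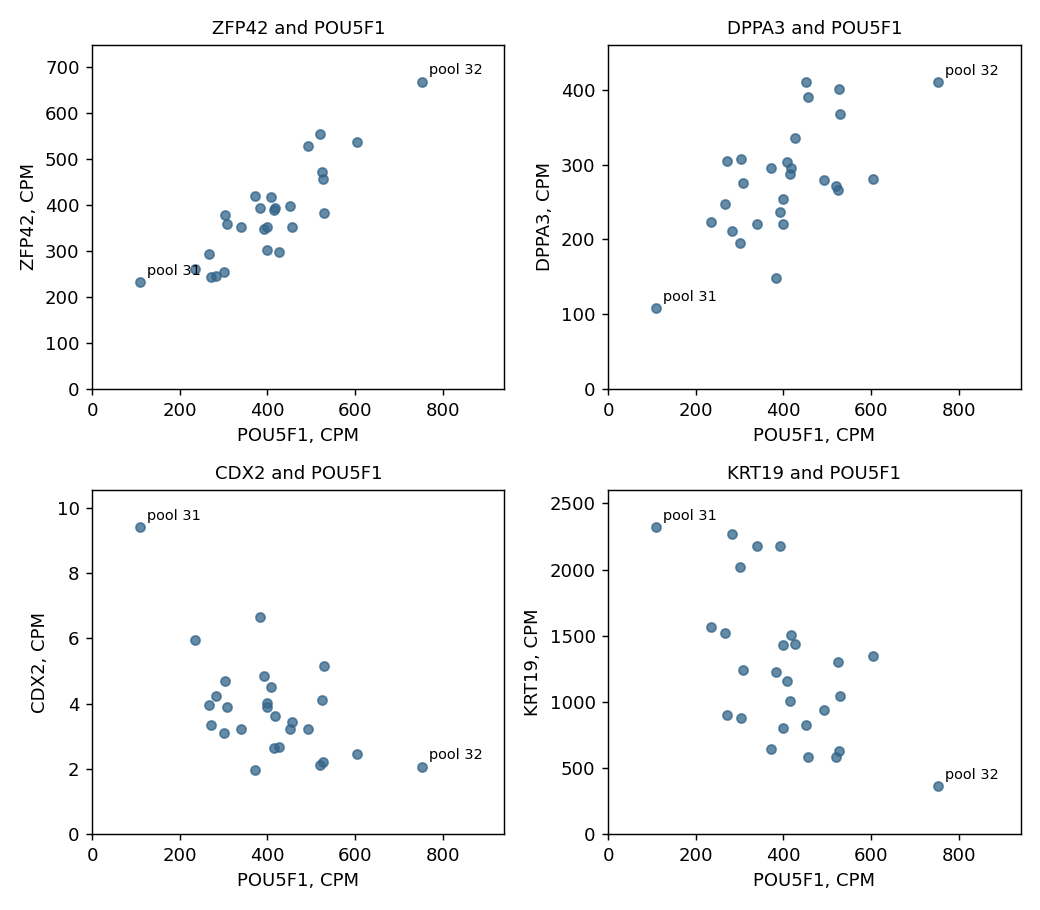
CPM of ZFP42, DPPA3, CDX2 and KRT19 against CPM of POU5F1, with 1 point for each of the 27 pools and linear axes from 0. ZFP42 and DPPA3 are higher and CDX2 and KRT19 lower in pools with more POU5F1, and pool 31 lies at the end of each panel with 109 CPM of POU5F1 and 9.42 CPM of CDX2.

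The genes whose pattern was most like POU5F1 over the 27 pools were CMTM6, a regulator of membrane protein stability (rho 0.877), the cell cycle kinase CDK2 (0.857), C4H7orf31 (0.816), STRBP (0.811) and the ubiquitin ligase scaffold CUL2 (0.809). All 5 passed the edgeR test, with adjusted p-values from 4.2e-06 to 0.0125. The most opposed were the copper chaperone ATOX1 (-0.816), the calcium-binding protein S100A10 (-0.813) and TMEM205 (-0.794), and they passed as well (adjusted p = 0.00244, 0.00109 and 0.000235).

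For NANOG 1 gene, or 0.00812% of the genes tested, passed edgeR's test at an adjusted p of 0.05, although 952 were at 0.05 or less before adjustment and DESeq2 called 86. That gene was STMN1, the microtubule-destabilizing protein stathmin, which ranged from 254 to 749 CPM (median 420). STMN1 rose with NANOG with a slope of 0.383 (adjusted p = 1.54e-05) and a rho of 0.888, and DESeq2 also called it. The next most like NANOG were the chemokine CCL24 (rho 0.779), GBA3 (0.743), the lipid transfer protein MTTP (0.735) and the cadherin CDH17 (0.732). None of these 4 passed edgeR's test (adjusted p from 0.0663 to 0.154), and GBA3, MTTP and CDH17 were at 0 CPM in their lowest pool. The most opposed were the kinase MARK1 (-0.802), SPTLC2 (-0.737) and DLC1 (-0.725).

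None of 23 pluripotency and epiblast, 12 trophectoderm, 10 hypoblast or 12 let-7 genes of the fixed lists passed edgeR's test with NANOG. Of all genes tested 0.00812% passed, so the lack of a call says little about these lists. The median slope was 0.0436 for pluripotency genes, -0.00154 for trophectoderm and -0.0624 for hypoblast, beside -0.00518 for all genes. Members of a list differed in sign. Among hypoblast genes the transcription factor HNF4A had a slope of 0.476 (rho 0.543, edgeR adjusted p = 0.384) and NID2 a slope of -0.299 (rho -0.489, edgeR adjusted p = 0.411), while GATA6, SPARC and COL4A1 had a rho from -0.287 to -0.253. Among pluripotency genes IL6ST, the receptor chain shared by interleukin-6 family cytokines, had a slope of 0.231 (rho 0.624, edgeR adjusted p = 0.213), and TFAP2C, a factor of trophoblast and germ cells, a slope of -0.158 (rho -0.606, edgeR adjusted p = 0.17).

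**Figure D4:**
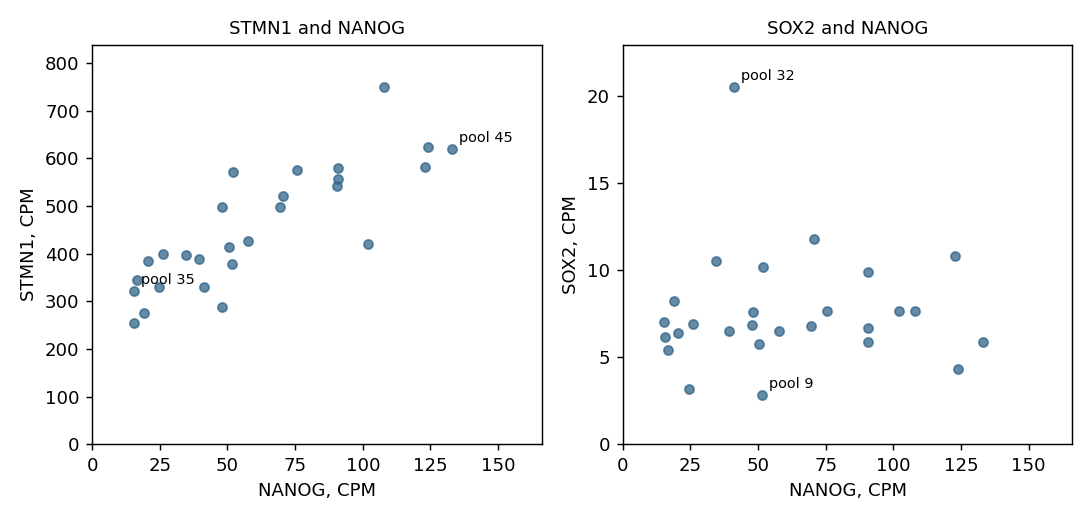
CPM of STMN1 and of SOX2 against CPM of NANOG, with 1 point for each of the 27 pools and linear axes from 0. STMN1 is higher in pools with more NANOG (rho 0.888), while SOX2 shows no trend (rho 0.118) and pool 32 is highest in SOX2 at a middle NANOG level.

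With SOX2, 0 of 12309 genes (0%) passed edgeR's test, while 1225 were at 0.05 or less before adjustment and DESeq2 called 64. The genes most like SOX2 were the proline-degrading enzyme PRODH (rho 0.764), PPP1R14A (0.737), NXPH4 (0.727), the mitochondrial thioredoxin TXN2 (0.725) and TSPO (0.716), with edgeR adjusted p-values between 0.0847 and 0.195. The most opposed were C3H1orf43 (-0.66), LOC505918 (-0.621) and HINT1 (-0.606). The slope of PRDM14 on SOX2 was 0.414 (edgeR adjusted p = 0.288), and that of SOX2 on PRDM14 was 0.805 (edgeR adjusted p = 0.0864), so the pair that passed among the 45 did not pass over all genes. The median slope on SOX2 was 0.0819 for pluripotency genes, -0.13 for trophectoderm and 0.28 for hypoblast, beside -0.0109 for all genes. FGF4, the epiblast growth factor that SOX2 and POU5F1 activate in mouse, had a median of 0 CPM and at most 0.871 CPM.

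Many genes that moved with LIN28B were X-linked. The 3 most like it were XIST, the noncoding RNA of the inactive X chromosome, the respiratory subunit NDUFA1 and the ribosomal protein RPL39, with a rho between 0.842 and 0.859, and all 3 lie on the X chromosome while LIN28B lies on chromosome 9. Of the 50 genes most like LIN28B, 35 (70%) were X-linked. For each of the other 9 factors 0 to 3 of the 50 were, and 3.64% of the retained genes with a position were X-linked. By edgeR 178 genes rose with LIN28B and 134 fell, 1.45% and 1.09% of the genes tested, or 2.53% in all. Of the 177 that rose and had a position, 106 (59.9%) were X-linked, and of the 134 that fell, 0 were. Among genes called with KLF4, 2 of the 16 that rose (12.5%) were X-linked, and with PRDM14 6 of the 11 that fell (54.5%). The counts on X were made after the data were seen.

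These relations span the 2 sets of pools, so LIN28B was also described in each. Each pool mixed 2 embryos whose sex the labels do not give. The 18 pools can therefore still differ in how many of their embryos carried Y-linked transcripts. Relations within them are not free of that difference, which was not tested. In the 18 pools with Y-linked transcripts LIN28B ranged from 4.94 to 17.5 CPM (median 11), and in the 9 pools low in them from 14 to 24.4 CPM (median 18). The sets overlapped, 14 of the 18 pools being below all 9 and 5 of the 9 above all 18. XIST reached 19.6 CPM at most in the former, where its lowest value was 0.0484 CPM, and spanned 12.3 to 35.4 CPM in the latter. XIST was chosen here as the gene most like LIN28B over all 27 pools, so its values within each set are a description with no test. Within the 18 pools LIN28B and XIST had a rho of 0.734 and an r of 0.739, or 0.752 without the 2 pools farthest from the median of XIST. Within the 9 pools rho was 0.45 and r was 0.478. Over the 18 pools alone RPL39 had a rho of 0.831 with LIN28B and NDUFA1 a rho of 0.709, and 19 of the 50 most like genes (38%) were X-linked. The summed Y-linked transcripts themselves had a rho of -0.463 with LIN28B in the 18 pools (permutation p = 0.0545), and over the 10 factors tested none passed adjustment.

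**Figure D5:**
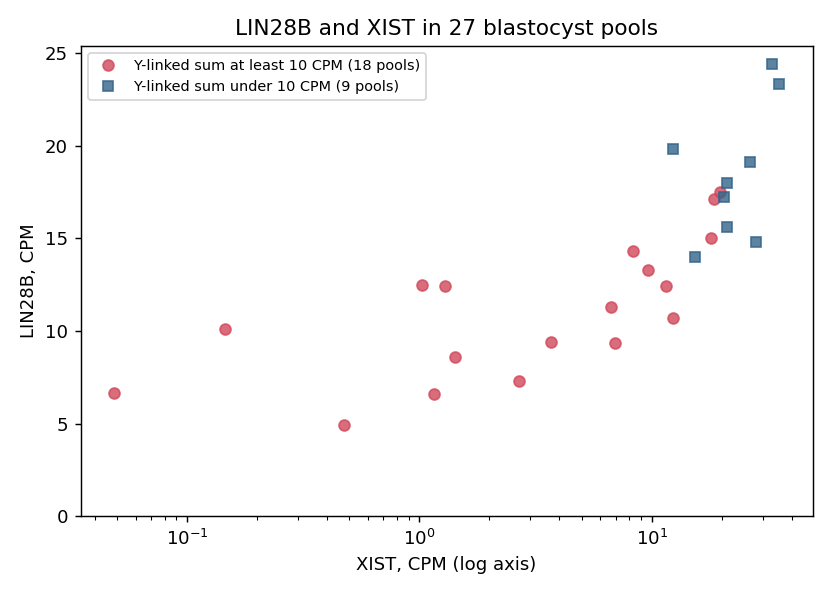
LIN28B in CPM against XIST in CPM on a log axis, with 1 point for each pool. Circles are the 18 pools with at least 10 CPM of summed Y-linked transcripts and squares the 9 pools under it, and LIN28B is lowest at 4.94 CPM in pool 28, where XIST is 0.475 CPM, and highest at 24.4 CPM in pool 33, where XIST is 32.8 CPM.

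Among the other factors, the 2 sets of pools overlapped more. PRDM14 ranged from 17.1 to 39.2 CPM (median 24) in the 18 pools and from 10.2 to 29.9 CPM (median 19.2) in the 9, and 17 of the 18 were above the median of the 9. KLF4 had medians of 22.3 CPM in the 18 and 32 CPM in the 9, and SALL4, with 45.1 and 44.1 CPM, was nearly even. These differences between sets made from the data were not tested. With PRDM14, 12 genes rose and 11 fell by edgeR, 0.0975% and 0.0894% of the genes tested (0.187% in all).

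The other factors had different nearest genes. Those most like SALL4 were RAB11FIP1 (rho 0.875), the SOX family factor SOX15 (0.867) and RIN3 (0.839), and 832 genes, 6.76% of those tested, changed with SALL4. Genes most like KLF4 were SH3BP4 (0.825), the connexin GJB5 (0.825) and PEDS1 (0.789), with 16 genes rising (0.13%) and 37 falling (0.301%), 0.431% in all. KLF5 was most like TESK2 (0.814), NDUFS1 (0.79) and SLC3A2 (0.772), and 149 genes rose (1.21%) and 76 fell (0.617%) with it, 1.83% in all. For PRDM14 they were PLEKHJ1 (0.719), NOP9 (0.718) and PPP1R14B (0.714). LIN28A had RPL7L1 (0.705), CREB3L4 (0.673) and LMO4 (0.67), and ESRRB had MRPL14 (0.728), ACTN4 (0.718) and CISD3 (0.715). With LIN28A and with ESRRB edgeR called 0 genes, although 645 and 1303 were at 0.05 or less before adjustment. DESeq2 was run with POU5F1, NANOG and SOX2 only.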

How the data were processed

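The data were RNA-sequencing libraries of 27 pools, each made from 2 blastocysts. Per the labels and methods, cDNA was made with a SMART-Seq v4 kit that reads 3’ ends. The authors used fastp for trimming, STAR for mapping to the ARS-UCD2.0 build and featureCounts for counting, and the deposited values are raw counts for 32637 genes. Tool versions, annotation release and strand setting are not given in the sources used here. Because reads come from transcript ends, counts were not divided by length. Levels were not compared between genes.

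CPM used the total count of each pool, and retention required 1 CPM or more in at least 12 pools, the filter of the study. The 10 genes and the marker lists were chosen with earlier results of these data known, and the 7 further anchor genes, the mitochondrial share, the X-linked counts and the relations within pools split by Y-linked transcripts were added after seeing the data. Named genes were the 10 factors, listed genes that passed the test with up to 4 per list that did not (in order of CPM), and, by Spearman rho, the 5 highest and 3 lowest for POU5F1, NANOG and SOX2 and the 3 highest for the others. TEAD4, HAND1, HNF4A, FGF4, ETV4 and other listed genes in the closing observations fall outside this rule and were named after their values were seen.

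Pairs were tested by Spearman rho of CPM and Pearson r of log2(CPM + 1) with 100000 permutations, two-sided, and Benjamini-Hochberg adjustment over the 45 pairs. Slopes were fitted with edgeR 4.0.16 (TMM, quasi-likelihood) on the whole table without covariates, and with DESeq2 1.42.0 as an alternative, in R 4.3.3. BCV came from an edgeR fit with an intercept only, and genes of like abundance were within 0.5 log2 CPM. On simulated counts for 12310 genes with a slope of 1 on NANOG in 200 genes, edgeR recovered 186 with 9 false calls. That slope is larger than the 0.383 of STMN1 on NANOG, and genes were drawn independently. The simulation therefore does not show how many smaller slopes, or slopes on SOX2, would be found. Positions were read from RefSeq's gene table of that build. By the paper, the blastocysts came from a few IVF replicates, so several pools shared maturation and culture. The p-values treat the pools as independent, which they were not. Treatment and IVF replicate were not assigned, so relations were not recomputed within them. Sequences were not used here. Python 3.11.15, numpy 2.4.6 and pandas 2.3.3 were used.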

Additional observations from a re-analysis of the deposited data

How the results depend on the processing

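All 10 factors were retained at 0.5 CPM and at 2 CPM. The median level of each factor stayed within the range among pools under TMM scaling or when totals covered retained genes alone. As TMM factors lay between 0.892 and 1.08, the medians could hardly have left that range. The number of factor pairs called was 5 with total counts, 6 with TMM and with DESeq2 size factors, 3 by Pearson correlation of log2(CPM + 1) and 3 with log2(CPM + 0.1), 4 without pool 9, and 0 within the 18 pools with Y-linked transcripts, where 13 pairs had an unadjusted p of 0.05 or less and fewer pools were used. Leaving out 1 pool at a time gave between 2 pairs (without pool 15) and 7 pairs (without pool 5), and 3 without pool 22. SOX2 with PRDM14 and LIN28B with KLF4 lost their call only within the 18 pools, among these alternatives. POU5F1 with KLF5 lost it in 4 of 8 alternatives and without any of 12 single pools.

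The genes called with POU5F1 numbered 813, but 1301 with all counted genes and 1275 with DESeq2, of which 799 were shared with edgeR, and between 185 (without pool 31) and 902 (without pool 14) with 1 pool left out. For NANOG the count of 1 became 652 with all counted genes, 86 with DESeq2, 8 without pool 9, 2 within the 18 pools and between 1 and 20 with 1 other pool left out, the highest without pool 31. For SOX2 the count of 0 became 584 with all counted genes, 64 with DESeq2 and between 0 and 17, the highest without pool 23. The causes of these differences were not tested. Of 434 single values of 5 pairs and 8 listed genes or factors under these alternatives, 367 kept direction and call, 67 kept direction and lost the call, and 0 changed direction. The 13 results counted had been chosen for passing, and most alternatives left out only 1 pool. For the pairs, 1 alternative repeated the main values, since every factor was retained. A change of direction was therefore unlikely from the outset, and the tally is no independent support.

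No paired analysis was possible because the labels give neither treatment nor IVF replicate. Depth limits LIN28A, ESRRB and SOX2 most, whose lowest pools held 21, 19 and 41 counts.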

Other observations

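Among genes of the pluripotency list that are not described above, some were near the detection limit in these blastocysts. NODAL, a ligand of the epiblast, had a median of 0 CPM and at most 0.0644 CPM, and ETV4, a target of fibroblast growth factor signaling, was between 0 and 1.95 CPM. Others were present in every pool. TFCP2L1, a factor of the naive state in mouse, was between 23.6 and 70.2 CPM, DNMT3B, a de novo DNA methyltransferase, between 24.7 and 85.6 CPM, and the paired DPPA2 and DPPA4 between 13.8 and 68.8 CPM and between 27.8 and 60.3 CPM. KLF17 had a median of 11.8 CPM and was between 0.57 and 47.8 CPM.

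Of the RNA-binding proteins that belong to the let-7 axis with LIN28B, IGF2BP1 was between 161 and 296 CPM and IGF2BP3 between 41.4 and 84.6 CPM. HMGA2, a target of let-7 in many cells, was between 0 and 2.7 CPM and was not retained.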
